A study of Mus musculus with 8 samples.

Results

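DNA replication and mitosis genes were followed in bone marrow derived dendritic cells (BMDC) that had engulfed ferroptotic cancer cells. They are 45 genes chosen by symbol, of 55487 mouse genes in the count table, and all 45 were found. Of these, 23 act in the preparation and execution of S phase and 22 in G2 phase and mitosis. BMDC are wild type (WT) mouse cells from C57/bl6 mice, grown from marrow progenitors with GM-CSF, and all libraries of both groups share this origin and a culture of 10 days per the labels. The first group, BMDC, had no treatment (4 libraries). The second, BMDC-fer, had been co-cultured for 4 h with Jurkat cells, an established human T-cell leukemia line, that were driven into ferroptosis with ML162, an inhibitor of GPX4, at 0.5 µM for 14 h (4 libraries). BMDC-fer were sorted for dendritic cells that had taken up the dying cells, whereas no sort is stated for BMDC, so uptake and sorting cannot be told apart. The labels do not say whether replicates came from separate animals, and p-values measure the spread between these libraries.

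A dividing cell first loads the MCM helicase onto replication origins, fires them at the entry into S phase, copies its DNA, and then builds a spindle that parts the chromosomes. The genes for these steps are transcribed in 2 waves. E2F factors drive the S phase wave at short E2F sites, and the MuvB complex with B-MYB and FOXM1 drives the mitotic wave at elements called CHR, often next to CCAAT boxes bound by NF-Y. A GM-CSF culture of bone marrow starts from dividing progenitors, and dendritic cells leave the cell cycle as they mature, so transcripts of both waves mark the cells that still divide.

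Promoters of 35 of the 45 genes were present in the RefSeq table (GRCm38.p6), each spanning 250 bases before to 50 after the transcription start. Their sequences were searched for the letters of E2F, CHR and CCAAT sites. The other 10 genes were Mcm4, Gins1, Gins2, Pole, Ccne2, Ccna2, Foxm1, Aurkb, Kif20a and Tpx2. E2F was searched as TTTCCCGC, TTTGGCGC, TTTCGCGC and TTTGCCGC, CHR as TTTGAA and TTCGAA, and the CCAAT box as CCAAT, each on both strands. The windows below run from 150 bases before to 50 after the start, 5′ to 3′ on the strand of the gene. Capitals mark the matches, and no 2 of them share a base. Pcna was the highest S phase gene by fold change, and Kif11 and Plk1 were the lowest and the highest mitotic gene. Pola1 was added after the matches were seen, as the S phase gene with E2F letters that had the lowest fold change. Ccne2, the lowest S phase gene, had no promoter in the table. Brca1, the next lowest, had no E2F letters in its promoter and is not shown.
Pcna, chr2:132253131-132253330, minus strand: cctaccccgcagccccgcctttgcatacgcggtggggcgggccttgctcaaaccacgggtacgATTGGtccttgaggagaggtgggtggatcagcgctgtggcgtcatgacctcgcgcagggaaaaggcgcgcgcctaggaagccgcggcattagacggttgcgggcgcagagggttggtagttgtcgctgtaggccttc
Pola1, chrX:93632106-93632305, minus strand: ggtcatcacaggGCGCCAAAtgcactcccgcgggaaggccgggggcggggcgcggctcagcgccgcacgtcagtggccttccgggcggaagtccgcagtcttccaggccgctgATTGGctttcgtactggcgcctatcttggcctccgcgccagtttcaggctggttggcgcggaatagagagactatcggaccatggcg
Kif11, chr19:37376232-37376431, plus strand: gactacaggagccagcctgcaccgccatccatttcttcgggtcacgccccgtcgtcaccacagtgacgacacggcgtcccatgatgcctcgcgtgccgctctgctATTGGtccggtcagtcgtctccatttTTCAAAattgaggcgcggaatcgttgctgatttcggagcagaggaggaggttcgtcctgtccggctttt
Plk1, chr7:122159285-122159484, plus strand: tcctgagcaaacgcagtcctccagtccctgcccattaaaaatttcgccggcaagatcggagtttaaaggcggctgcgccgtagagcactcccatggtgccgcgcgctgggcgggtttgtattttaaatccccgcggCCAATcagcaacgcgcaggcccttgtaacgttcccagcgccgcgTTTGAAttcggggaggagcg
Pola1 carries the E2F letters TTTGGCGC on the opposite strand with the leftmost base at position -138 from the start, and Kif11 carries the CHR letters TTTGAA on the opposite strand at -19. In Plk1 the CHR letters begin at position 31, after the start. A CCAAT match lies at -87 in Pcna, -37 in Pola1, -45 in Kif11 and -14 in Plk1.

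E2F letters occurred in 7 of 18 S phase promoters (38.9%), in 1 of 17 mitotic promoters (5.88%) and in 2.6% of the promoters of all 27025 genes in the table. The 7 were Mcm3, Mcm5, Mcm6, Mcm7, Cdc6, Cdt1 and Pola1, and the mitotic gene was Cdk1. CHR letters showed the reverse, with 13 of 17 mitotic promoters (76.5%), 4 of 18 S phase promoters (22.2%) and 21.7% of all genes. Among the mitotic promoters, only Birc5, Ccnb1, Cenpe and Mybl2 lacked these letters in the window. The CCAAT box was found in 13 of 18 S phase and 15 of 17 mitotic promoters, against 41.1% of all genes. These matches are a description of letters, and no binding was measured.

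**Figure D1:**
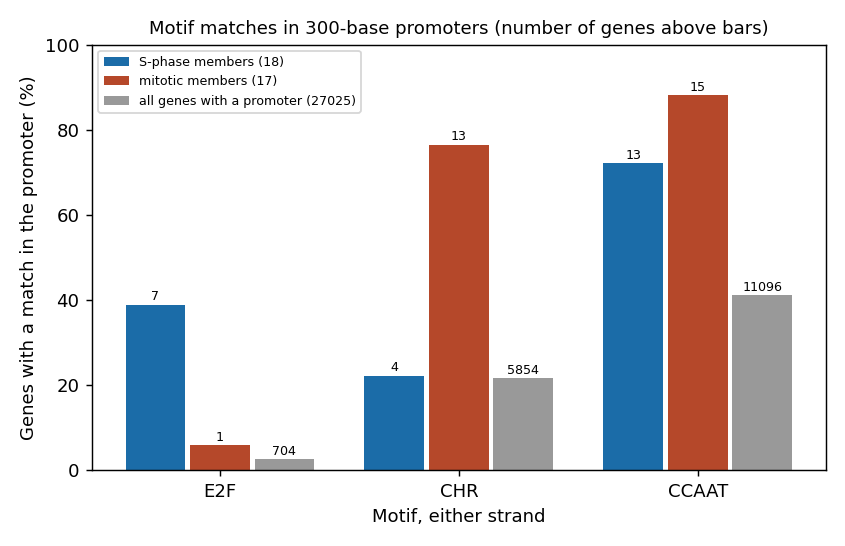
Share of genes (%) with a match to each motif in the promoter, for S phase genes, mitotic genes and all genes in the RefSeq table, with the number of genes above each bar. E2F letters are most frequent in S phase promoters (38.9%) and CHR letters in mitotic promoters (76.5%).

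The libraries held 39326672 to 50532209 counts, and a floor of 3 counts corresponded to 0.0594 to 0.0763 CPM (counts scaled to the size of the library). All 45 genes were far above this floor, with mean counts (over the 8 libraries) between 366 for Ccne2 and 11402 for Pcna, and all passed the filter on low counts. Most stood at lower levels in BMDC-fer, without passing the test. The log2 fold change of BMDC-fer over BMDC was below 0 for 43 of 45 genes, where 49.9% of all tested genes were below 0, and its median was -0.51, against 0.00069 over all tested genes. The median was -0.53 for the S phase genes and -0.50 for the mitotic genes. With edgeR's quasi-likelihood test, 0 of the 45 genes were called, which took an adjusted p of at most 0.05 together with a log2 fold change of at least 0.58 in size, while 5.91% of the 15411 tested genes were called lower and 3.47% higher. At an unadjusted p under 0.05 there were 5 of 45, all of S phase, against 29.9% of all tested genes, a share that the 45 genes did not reach. They were Ccne2, Brca1, Pola1 and Mcm4 at lower and Pcna at higher levels. DESeq2 called 1 S phase gene (Ccne2) and 0 mitotic genes, and its share over all tested genes is not given here. In these bulk libraries, fewer dividing cells and less RNA per dividing cell cannot be told apart.

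Libraries of the same number, and of the same pair of numbers (1 and 2, or 3 and 4), deviated together from their group means, so a fit with the replicate number as a block was set beside the first. With the replicate block, 10 of the 45 genes were called lower and 0 higher, where 8.13% of all tested genes were called lower and 4.85% higher. The 10 were 6 S phase genes (Ccne2, Pola1, Brca1, Mcm7, Mcm4 and Rrm2) and 4 mitotic genes (Mybl2, Bub1, Ccnb2 and Ccna2). The count was smaller in fits with fewer libraries. Without both libraries of number 1, 2, 3 or 4, the block called 1, 1, 4 and 1 S phase genes and 0, 1, 0 and 0 mitotic genes. The share of all tested genes called in these smaller fits is not given here, so whether the loss is particular to the 45 genes was not tested.

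**Figure D2:**
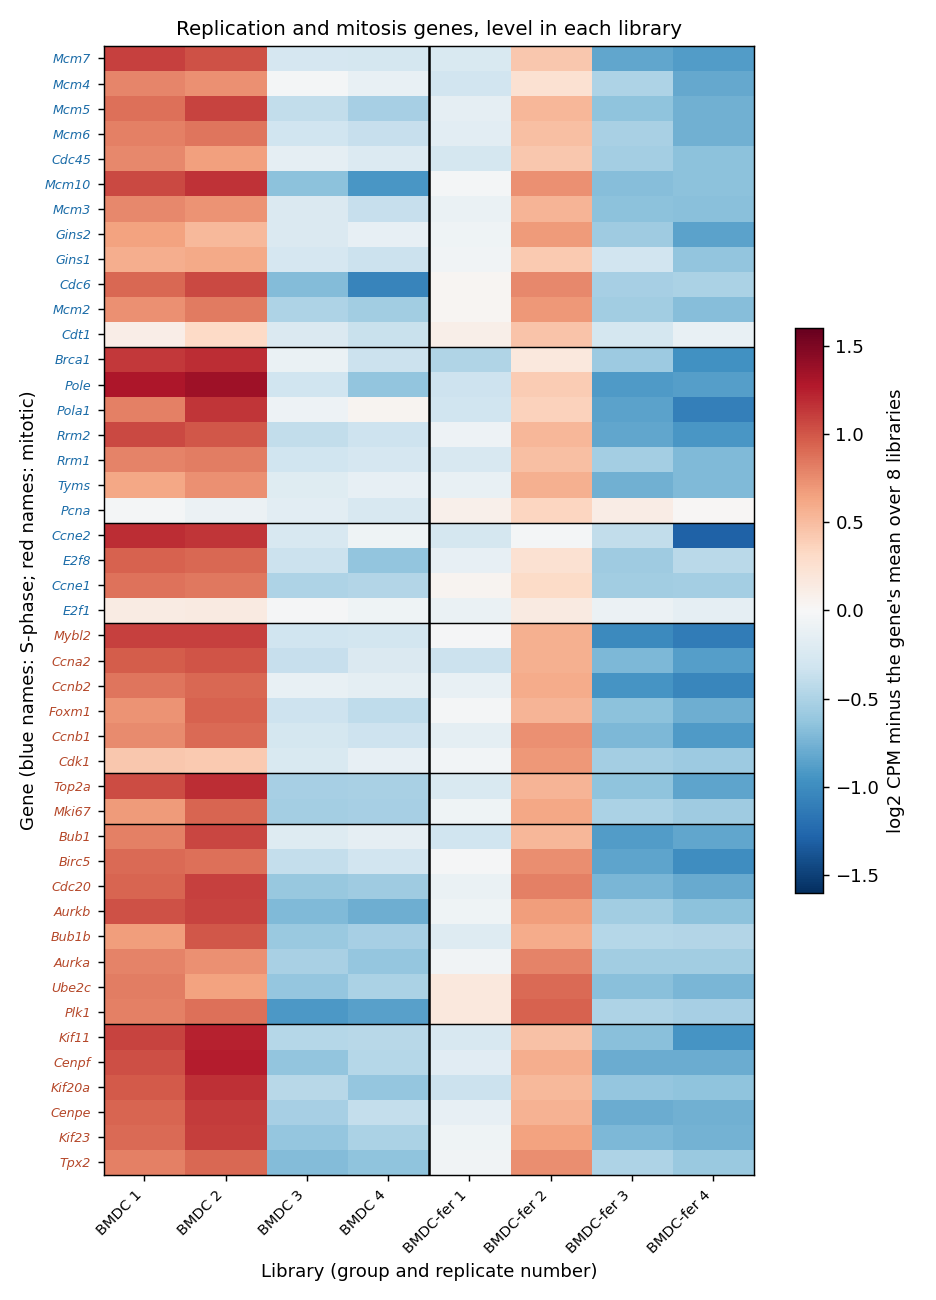
Level of each of the 45 genes (rows, ordered by role and fold change, roles parted by lines) in each of the 8 libraries (columns), as log2 CPM minus the gene's mean over the libraries. BMDC replicates 1 and 2 stand highest for most genes, and within each group replicates 3 and 4 stand below replicate 2, with Pcna, Cdt1 and E2f1 varying least.

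The licensing and origin firing genes comprise Mcm2, Mcm3, Mcm4, Mcm5, Mcm6 and Mcm7, the subunits of the helicase, Cdc6 and Cdt1, which load it, and Mcm10, Cdc45, Gins1 and Gins2, which switch it on. Of these 12, 11 had a log2 fold change below 0, with a median of -0.47. Mcm7 (chromosome 5, 138164583 to 138172422, GRCm38) was the lowest. It was at 105, 100.01, 41.0 and 40.6 CPM in BMDC replicates 1 to 4 and at 41.9, 66.8, 27.8 and 26.7 CPM in BMDC-fer replicates 1 to 4. Each BMDC-fer library was below the BMDC library of its number, but the groups overlapped. Mcm7 had a log2 fold change of -0.82 (standard error, SE, 0.42, adjusted p = 0.223), and -0.77 with the replicate block (adjusted p = 0.0277). Mcm4 (chromosome 16, 15623897 to 15637400) was at 90.8, 87.8, 51.6 and 48.8 CPM in BMDC and at 42.8, 62.6, 37.7 and 29.9 CPM in BMDC-fer, again lower at every number. Its log2 fold change was -0.69 (SE 0.28, adjusted p = 0.141), and -0.68 with the block (adjusted p = 0.0243).

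The loading factor Cdt1, which is destroyed once S phase begins, had a fold change near 0. In BMDC it was at 27.4, 31.6, 21.8 and 19.9 CPM, and in BMDC-fer at 27.2, 35.1, 21.0 and 23.5 CPM. The groups overlapped almost wholly, with a log2 fold change of 0.08 (SE 0.20, adjusted p = 0.813), and the sign turned without normalization factors (-0.03). The other 9 licensing genes were between -0.59 for Mcm5 and -0.30 for Mcm2, and none was called with or without the block.

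Of the 7 genes for DNA synthesis, nucleotide supply and repair, 6 had a fold change below 0, and the median of -0.70 was the lowest of the 7 roles. Brca1, which repairs broken forks by homologous recombination, was at 27.3, 28.3, 11.5 and 9.83 CPM in BMDC and at 8.94, 13.98, 8.29 and 6.39 CPM in BMDC-fer. BMDC-fer replicate 2 was above BMDC replicates 3 and 4, so the groups overlapped. Brca1 (chromosome 11, 101488764 to 101551955) had a log2 fold change of -1.03 (SE 0.40, adjusted p = 0.121), and -0.93 with the block (adjusted p = 0.0360). Pola1, the catalytic subunit of the polymerase that lays down primers (chromosome X, 93304767 to 93632155), was at 26.01, 32.7, 14.03 and 15.3 CPM in BMDC and at 11.9, 19.1, 8.17 and 6.96 CPM in BMDC-fer. Pola1 was lower at every number. A log2 fold change of -0.93 (SE 0.38, adjusted p = 0.139) became -0.95 with the block (adjusted p = 0.00945), the smallest blocked adjusted p of the 45 genes. Rrm2, the regulated subunit of ribonucleotide reductase (chromosome 12, 24708241 to 24714146), was at 121, 115, 44.3 and 46.1 CPM in BMDC and at 54.6, 83.8, 32.4 and 30.3 CPM in BMDC-fer. Rrm2 was lower at every number, with a log2 fold change of -0.70 (SE 0.44, adjusted p = 0.319), and -0.66 with the block (adjusted p = 0.0316). Pole, the leading strand polymerase, had a log2 fold change of -1.02 (adjusted p = 0.214, and 0.0579 with the block), Rrm1, the large reductase subunit, -0.53, and Tyms, which makes thymidylate, -0.46.

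Pcna, the sliding clamp that holds polymerases on DNA and also serves in repair, was the exception (chromosome 2, 132249162 to 132253314). In BMDC it was at 258, 246, 234 and 221 CPM, and in BMDC-fer at 278, 336, 287 and 267 CPM. Every BMDC-fer library was above every BMDC library, the only 1 of the 45 genes whose groups did not overlap; 11.3% of all tested genes lay above in this way and 11.6% below. The log2 fold change was 0.28 (SE 0.11), and it was not called (adjusted p = 0.123, and 0.109 with the block). Pcna counts ran from 8856 to 13728, and its pseudogene copy Pcna-ps2 received 463 to 720 counts, so a part of its reads may be shared between them. Per kilobase of exon, Pcna also had the highest level in BMDC, 99.9 ± 6.63 CPM per kb (SD, n = 4), followed by Ccnb2 with 33.3 ± 13.1 (SD, n = 4), while Pole had the lowest with 2.00 ± 1.28 (SD, n = 4).

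The 4 cyclin E and E2F genes start and later end the S phase wave. Ccne2, which encodes cyclin E2 (chromosome 4, 11191351 to 11204779), had the lowest fold change of all 45 genes. It was at 16.4, 16.0, 6.03 and 6.86 CPM in BMDC and at 5.95, 7.07, 5.49 and 2.96 CPM in BMDC-fer. BMDC replicates 1 and 2 stood apart, and the other 6 libraries lay between 2.96 and 7.07 CPM. Ccne2 had a log2 fold change of -1.08 (SE 0.40, adjusted p = 0.113), and -1.003 with the block (adjusted p = 0.0443). The related Ccne1 (cyclin E1) had a log2 fold change of -0.47 (adjusted p = 0.423).

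E2f1, an activator of the S phase wave, was at 37.3, 37.8, 33.6 and 32.6 CPM in BMDC and at 31.7, 37.6, 32.0 and 30.9 CPM in BMDC-fer. The values lay within a narrow range in all 8 libraries, and the log2 fold change was -0.09 (SE 0.11, adjusted p = 0.588). E2f8, a repressor that closes the wave, was at 58.3, 57.2, 23.9 and 19.7 CPM in BMDC and at 27.6, 36.0, 20.5 and 22.6 CPM in BMDC-fer. BMDC replicates 1 and 2 stood above all other libraries. Its log2 fold change was -0.58 (SE 0.37, adjusted p = 0.333, and 0.201 with the block).

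**Figure D3:**
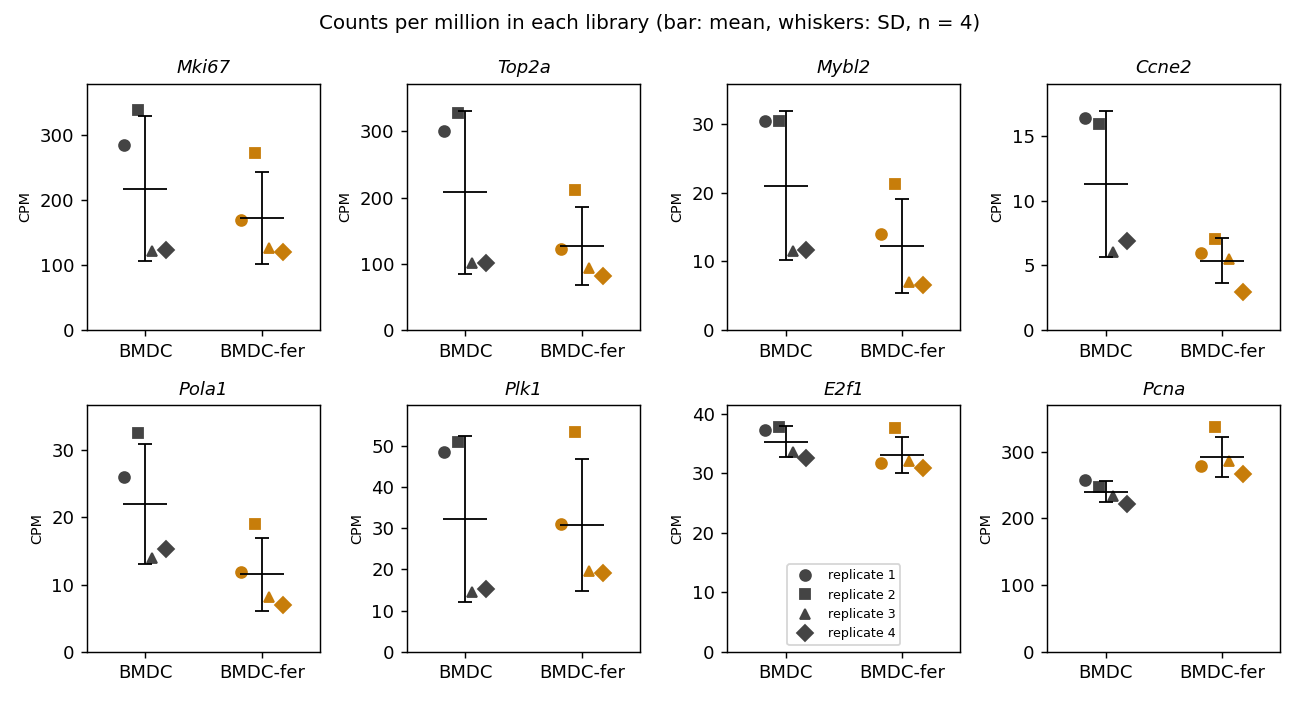
CPM of 8 of the genes in each library, with 1 symbol per replicate number, the group mean as a bar and the SD as whiskers (n = 4 libraries per group). In BMDC, replicates 1 and 2 stand far above replicates 3 and 4 for Mki67, Top2a, Mybl2, Ccne2, Pola1 and Plk1 but not for E2f1 and Pcna, and only Pcna has groups that do not overlap.

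The 22 mitotic genes all had a log2 fold change below 0. Among the cyclins and late cell cycle factors, Mybl2 was the lowest. Mybl2, which encodes B-MYB (chromosome 2, 163054687 to 163084688), was at 30.4, 30.4, 11.5 and 11.7 CPM in BMDC and at 14.02, 21.2, 7.04 and 6.596 CPM in BMDC-fer. It was lower at every number, and the log2 fold change of -0.78 (SE 0.48, adjusted p = 0.305) was -0.79 with the block (adjusted p = 0.0185). Foxm1, the factor that completes the mitotic wave, was at 38.1, 44.6, 18.5 and 17.5 CPM in BMDC and at 22.6, 33.6, 14.7 and 13.5 CPM in BMDC-fer. Its log2 fold change was -0.49 (SE 0.39, adjusted p = 0.428), and -0.47 with the block, where the adjusted p of 0.0468 passed but the fold change did not.

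Ccnb2, which encodes cyclin B2 (chromosome 9, 70407692 to 70421547), was at 67.0, 69.8, 34.1 and 33.3 CPM in BMDC and at 34.2, 55.9, 19.2 and 18.01 CPM in BMDC-fer. BMDC-fer replicates 3 and 4 were the lowest of the 8 libraries. Ccnb2 had a log2 fold change of -0.68 (SE 0.41, adjusted p = 0.296), and -0.75 with the block (adjusted p = 0.0200). Ccna2, which encodes cyclin A2 (chromosome 3, 36564865 to 36572150), was at 90.0, 92.4, 35.5 and 39.1 CPM in BMDC and at 36.2, 67.9, 27.8 and 24.9 CPM in BMDC-fer. Ccna2 had a log2 fold change of -0.71 (SE 0.42, adjusted p = 0.285), and -0.69 with the block (adjusted p = 0.0478). Cyclin B1 (Ccnb1) had a log2 fold change of -0.49. Cdk1, the kinase that these cyclins switch on, was at 86.5, 85.7, 54.5 and 58.6 CPM in BMDC and at 62.6, 104, 44.1 and 43.1 CPM in BMDC-fer. BMDC-fer replicate 2 was the highest of the 8 libraries, and the log2 fold change was -0.17 (SE 0.30, adjusted p = 0.731).

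The proliferation antigens gave no call. Mki67, which encodes the Ki-67 protein used to stain cycling cells, was at 285, 339, 122 and 123 CPM in BMDC and at 170, 273, 126 and 121 CPM in BMDC-fer. Replicates 3 and 4 of both groups lay between 121 and 126 CPM, and the log2 fold change was -0.33 (SE 0.40, adjusted p = 0.604, and 0.275 with the block). Top2a, the topoisomerase that untangles chromosomes, was at 300.4, 328, 101 and 101 CPM in BMDC and at 123, 212, 93.1 and 80.8 CPM in BMDC-fer. It was lower at every number, with a log2 fold change of -0.71 (SE 0.47, adjusted p = 0.340, and 0.0961 with the block).

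The kinases, checkpoint genes and genes that act with the anaphase promoting complex had a median log2 fold change of -0.42 over 8 genes. Bub1, a kinase of the spindle checkpoint (chromosome 2, 127801122 to 127831865), was at 42.0, 50.1, 20.7 and 21.6 CPM in BMDC and at 19.1, 34.6, 12.8 and 13.4 CPM in BMDC-fer. Bub1 was lower at every number, with a log2 fold change of -0.75 (SE 0.40, adjusted p = 0.243), and -0.76 with the block (adjusted p = 0.0180). Plk1, the kinase that drives entry into and exit from mitosis, was at 48.5, 50.98, 14.6 and 15.1 CPM in BMDC and at 31.0, 53.4, 19.6 and 19.2 CPM in BMDC-fer. It was lower in BMDC-fer only at number 1. The log2 fold change was -0.07 (SE 0.51, adjusted p = 0.940), and 0.05 with the block (adjusted p = 0.882). The other 6 ran from -0.51 for Birc5 (survivin) through Cdc20, which activates the complex, Aurkb, Bub1b and Aurka to -0.15 for Ube2c, its ubiquitin conjugating enzyme, and none was called with or without the block.

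The 6 spindle and kinetochore genes had a median log2 fold change of -0.66, and 0 of them were called with the block. Kif11, the motor that pushes the spindle poles apart, was at 80.6, 89.9, 27.8 and 28.0 CPM in BMDC and at 31.8, 52.9, 23.9 and 19.8 CPM in BMDC-fer. It was lower at every number, with a log2 fold change of -0.82 (SE 0.47, adjusted p = 0.271, and 0.0556 with the block). Tpx2, which nucleates spindle microtubules, was at 89.5, 97.1, 31.8 and 32.9 CPM in BMDC and at 49.2, 85.6, 36.3 and 34.03 CPM in BMDC-fer. BMDC-fer was higher at numbers 3 and 4, and the log2 fold change was -0.29 (SE 0.45, adjusted p = 0.690). The kinetochore genes Cenpf and Cenpe and the kinesins of cytokinesis Kif20a and Kif23 lay between -0.72 and -0.54.

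**Figure D4:**
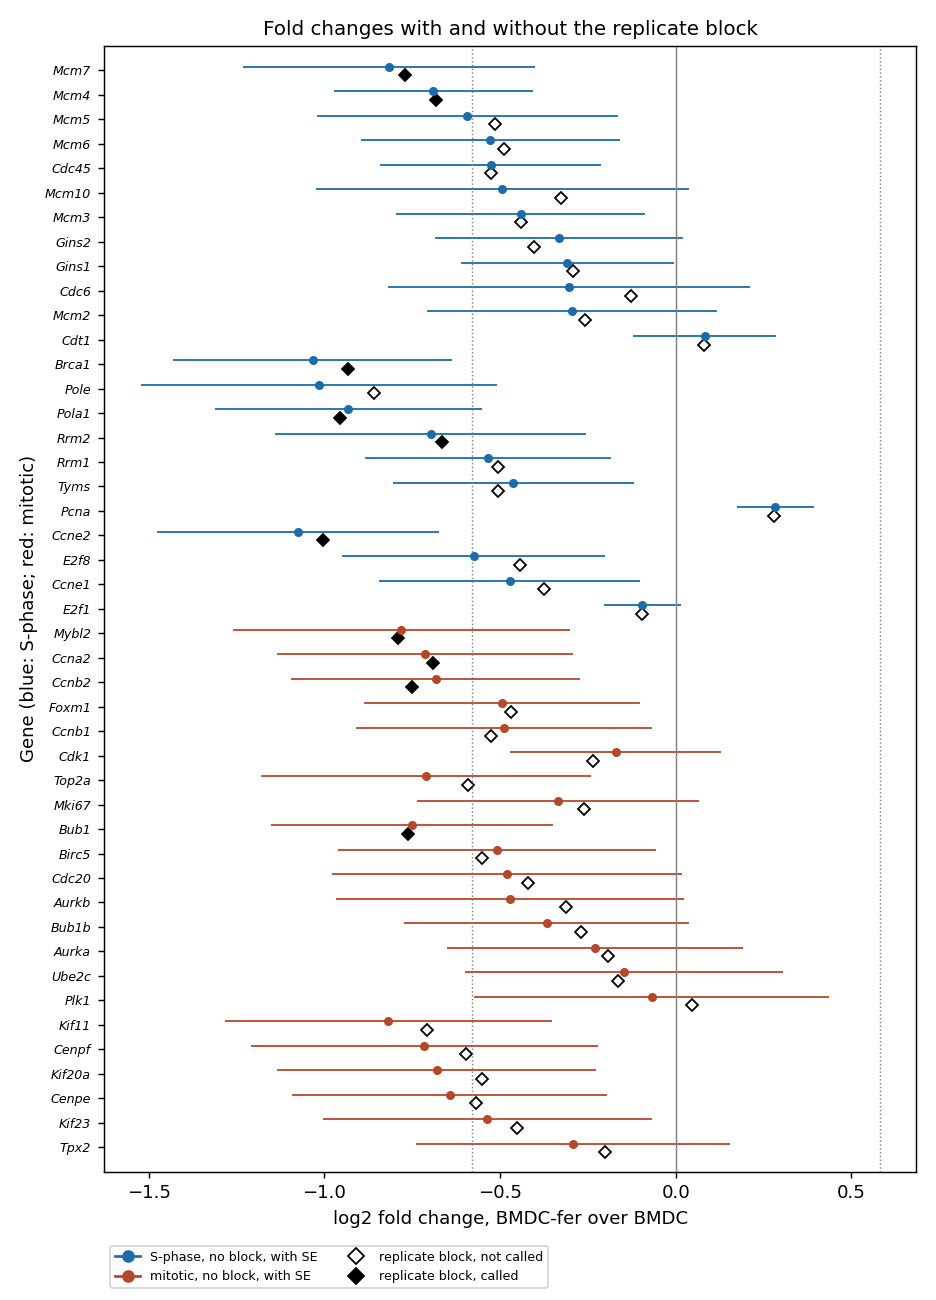
log2 fold change of BMDC-fer over BMDC for each gene, as a circle with its standard error for the fit without a block and as a diamond for the fit with the replicate block (filled where called; dotted lines at the threshold of 0.58 in each direction). Circles lie left of 0 for 43 of 45 genes, the 10 filled diamonds are all on the left, and Pcna and Cdt1 lie on the right.

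Untreated BMDC differed widely among themselves, by replicate number. The mean of BMDC replicates 1 and 2 was above that of replicates 3 and 4 for all 45 genes, from 1.11-fold for Pcna to 3.72-fold for Mcm10 with a median of 2.51-fold, and both libraries of the first pair were above both of the second in 45 of 45. In BMDC-fer the median was 1.95-fold, and the pairs were apart for 43 of 45. BMDC replicate 2 was at a median of 1.04 times replicate 1, whereas BMDC-fer replicate 2 was above BMDC-fer replicate 1 for all 45 genes, with a median of 1.65-fold. The labels do not say what sets the pairs apart.

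The ratio of same-numbered libraries was therefore taken gene by gene. At number 1, 44 of 45 genes were lower in BMDC-fer, with a median log2 ratio of -0.98. At numbers 2, 3 and 4 the counts were 38, 38 and 35, and the medians -0.41, -0.22 and -0.33. The share of all tested genes that was lower lay between 49.5% and 50.4%. In all 4 numbers together, 31 of the 45 genes were lower (17 of S phase and 14 mitotic), against 22.2% of all tested genes. Ccne2 had the lowest ratio at numbers 2 and 4, Pole at number 1 and Ccnb2 at number 3.

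**Figure D5:**
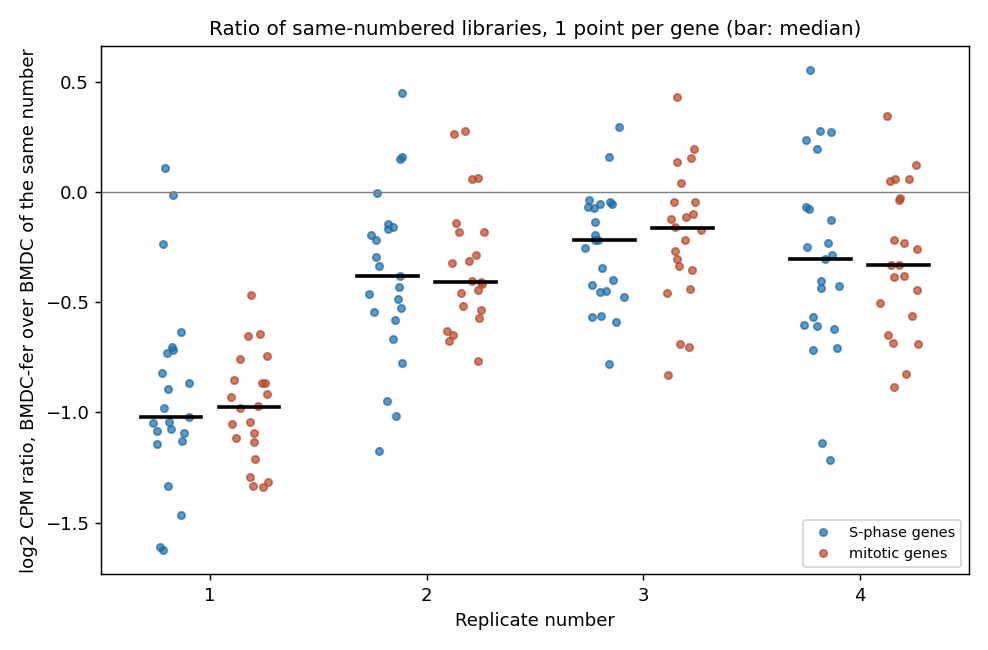
log2 ratio of CPM, BMDC-fer over the BMDC library of the same number, with 1 point per gene and the median of each set as a bar. Points lie lowest at number 1 (medians -1.02 for S phase and -0.98 for mitotic genes) and closer to 0 at numbers 2 to 4.

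Fitted within replicates 1 and 2 alone, 10 S phase and 6 mitotic genes were called lower and 0 higher (all tested genes, 11.3% lower and 8.16% higher). Within replicates 3 and 4 alone, only Pola1, Ccnb2, Mybl2 and Bub1 were called lower and 0 higher (all tested genes, 18% lower and 17.7% higher). The median log2 fold change of the 45 genes was -0.64 in the first pair and -0.28 in the second, where 35 of 45 were below 0. The share called within replicates 3 and 4 was thus below that of all tested genes. The difference between the pairs was itself tested, as an interaction of group and pair, and it passed for 3 of the 45 genes, Ccne1, E2f8 and Aurkb, each less low in replicates 3 and 4. Of all tested genes, 19.5% passed in that direction and 18.3% in the other. With DESeq2 the interaction passed for 11 of the 45, and the share of all tested genes that passed with DESeq2 is not given here.

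The S phase and mitotic sets took a like course across the libraries. Summed levels of the 23 S phase genes were 1590, 1602, 853 and 816 CPM in BMDC and 961, 1378, 791 and 735 CPM in BMDC-fer. Those of the 22 mitotic genes were 1829, 2003, 725 and 743 CPM in BMDC and 939, 1590, 654 and 614 CPM in BMDC-fer. Both sums were lower in BMDC-fer at every number and highest in BMDC replicates 1 and 2. The mitotic sum was 1.15, 1.25, 0.85 and 0.91 times the S phase sum in BMDC and 0.98, 1.15, 0.83 and 0.84 times in BMDC-fer, lower at every number. With Pcna left out of the S phase sum it was 1.37, 1.48, 1.17 and 1.25 times in BMDC and 1.38, 1.53, 1.29 and 1.31 times in BMDC-fer, higher at every number. The direction between the groups thus turned with Pcna. Either ratio followed the replicate pair in both groups, and the difference between the sets was not tested.

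Other genes of the same pathway, from lists outside the 45, had fold changes of the same kind. Over all tested genes, 5.91% were called lower, and 8.13% with the block. Of 55 other S phase genes, 51 had a log2 fold change below 0 (median -0.50), 2 were called lower and 0 higher, and 12 were called lower with the block. The 2 were Atad2, a chromatin reader of S phase cells, with a log2 fold change of -0.80 (SE 0.14, adjusted p = 0.0120), and Usp1, which removes ubiquitin from Pcna and Fancd2, with -0.74 (SE 0.15, adjusted p = 0.0187). Of 68 other mitotic genes, 66 were below 0 (median -0.55), and 1 was called lower, Stil, which builds centrioles, with 22 called lower under the block. Without the block, the share called lower was thus smaller in both lists than over all tested genes. Stil was at 20.1, 20.9, 19.6 and 19.6 CPM in BMDC and at 7.61, 9.11, 5.22 and 4.89 CPM in BMDC-fer. Its groups were far apart and its level did not follow the replicate pairs in BMDC, with a log2 fold change of -1.58 (SE 0.21, adjusted p = 0.00466). DESeq2 called 5 other S phase and 4 other mitotic genes. Without BMDC-fer replicate 4, edgeR called 0 of the other S phase genes, and 1 without BMDC-fer replicate 1 or 3. Without BMDC-fer replicate 2 it called 5 of them and 3 of the other mitotic genes.

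Among 49 tested G1 regulators and inhibitors of 50 listed, 6 were called lower and 0 higher, and the block called 6 lower and 2 higher. Over all tested genes, 5.91% were called lower and 3.47% higher, and 8.13% and 4.85% with the block. With the block, Mxd1 lost its call (adjusted p = 0.0743) and Ccnd2, which encodes cyclin D2, gained one (-0.89, adjusted p = 0.00989). Without BMDC-fer replicate 4 the count was 3. Cdkn1b, which encodes the cyclin dependent kinase inhibitor p27, was at 53.5, 49.4, 62.9 and 66.6 CPM in BMDC and at 20.9, 18.5, 30.4 and 28.6 CPM in BMDC-fer. Every BMDC-fer library was below every BMDC library, and the log2 fold change was -1.24 (SE 0.19, adjusted p = 0.00690). Tfdp2, a partner of E2F factors, fell by 1.09 on the log2 scale (adjusted p = 0.0119), Sesn2, a stress-induced inhibitor of growth, by 1.03 (adjusted p = 0.00746) and Rbl2, the pocket protein p130 of resting cells, by 0.86 (adjusted p = 0.0156), and Lin54 and Mxd1 were also called without the block. Myc, the growth factor induced regulator, was at 55.9, 53.0, 21.9 and 22.5 CPM in BMDC and at 81.7, 79.5, 49.8 and 58.4 CPM in BMDC-fer. It was higher at every number, with a log2 fold change of 0.81 (SE 0.35, adjusted p = 0.153), and with the block Myc was called (0.92, adjusted p = 0.0216), as was Sesn1 (0.64, adjusted p = 0.0424). Cyclin D1 (Ccnd1) had a log2 fold change of 0.39 (adjusted p = 0.730). Cdkn1a, the p21 inhibitor, was at 312, 264, 527 and 520.2 CPM in BMDC and at 474, 402, 396 and 355 CPM in BMDC-fer. It moved up at numbers 1 and 2 and down at 3 and 4, and its log2 fold change was 0.0023 (adjusted p = 0.995), with a sign that turned without normalization factors (-0.06).

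Markers of other cells moved with these genes in part. The 12 myeloid progenitor markers summed to 65.9 to 110 CPM in BMDC and 22.7 to 53.4 CPM in BMDC-fer, with no overlap. Without Cd34 the sum was 39.6 to 53.9 CPM and 20.2 to 36.9 CPM. Of the 11 tested, 9 had a log2 fold change below 0 (median -2.38), and Gfi1 (0.77) and Cebpe (0.15) were above 0. Elane, Prtn3 and Flt3 were called lower, at mean counts of 24.5, 63.25 and 90.1. Over all tested genes, 5.91% were called lower and 3.47% higher, and 8.13% and 4.85% with the block. The 12 dendritic cell markers summed to 8691 to 19555 CPM in BMDC and 3598 to 9817 CPM in BMDC-fer, and all 12 were detected. All 12 had a log2 fold change below 0 (median -1.52), and Dpp4, Irf4, Ccr7 and Ccl22 were called lower, with 10 called lower under the block. In each group the dendritic cell sum was higher in replicates 1 and 2 than in replicates 3 and 4, as the replication and mitosis genes were. This was not particular to dendritic cell markers. The macrophage sum did the same. The progenitor and T lineage sums did so as well, but without Cd34 or Cd28 the highest BMDC library was replicate 3. The neutrophil sum was lower in replicates 1 and 2, but without Mmp8 its highest BMDC library was replicate 1. The 10 neutrophil markers summed to 615 to 1253 CPM in BMDC and 742 to 1466 CPM in BMDC-fer, but most of this was Mmp8, a collagenase, at 383 to 1099 and 683 to 1443 CPM. Of the 10, 9 had a log2 fold change below 0 (median -2.95), and S100a9, Ly6g, Ngp and Retnlg were called lower. Without Mmp8 the sum was 53.4 to 275 CPM in BMDC and 21.1 to 59.1 CPM in BMDC-fer. The 10 macrophage markers summed to 2886 to 3647 CPM in BMDC and 3435 to 4878 CPM in BMDC-fer. Of these, 8 had a log2 fold change above 0 and 2 below (median 0.48). None was called higher, and Adgre1 was called lower (-0.81, adjusted p = 0.0119). The 10 mast cell and basophil markers summed to 17.8 to 45.7 CPM in BMDC and 5.85 to 14.7 CPM in BMDC-fer. Of 18 T lineage markers, the lineage of the engulfed Jurkat cells, 12 had a mean count under 20, and Rag1 and Bcl11b were at 0 in all libraries. Their sum was 44.3 to 48.6 CPM in BMDC and 36.1 to 57.3 CPM in BMDC-fer, mostly from Cd28, a costimulatory receptor, and without Cd28 it was 7.94 to 16.9 CPM and 4.36 to 8.74 CPM. Of the 6 tested, 4 had a log2 fold change below 0 (median -2.44), and Tcf7 (-3.39, adjusted p = 0.00207) and Lck (-1.59, adjusted p = 0.0482) were called lower. The part of these cell types in the levels of the 45 genes was not tested.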

How the data were processed

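Messenger RNA was sequenced from 4 BMDC and 4 BMDC-fer libraries. Per the labels, the authors used HISAT2, featureCounts, DESeq2 and the mm10 build. Raw counts per mouse gene were deposited, without normalization, and used unchanged. The annotation release, strand setting and treatment of reads with several positions are not given in the sources used here. Symbols, positions and exon lengths came from GENCODE M21 (GRCm38), and 55141 of 55487 gene identifiers matched.

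Counts were scaled by TMM, filtered with filterByExpr (minimum count 10) and tested over 15411 genes with edgeR 4.0.16 in R 4.3.3 (glmQLFit, glmQLFTest, Benjamini-Hochberg adjustment over all tested genes). CPM uses the TMM-scaled library size. The floor of 3 counts covers counting error alone, because without molecular identifiers several reads can stem from 1 molecule. The replicate numbers in the labels were taken to pair the samples, since same-numbered libraries deviated together from their group means at every number (correlation across genes, r = 0.446, 0.355, 0.313 and 0.343). Differently numbered libraries of 1 pair (1 and 2, or 3 and 4) correlated alike, at 0.186 to 0.380, and those of different pairs at -0.388 to -0.279. The fit with the replicate number as a block therefore stands beside the fit without it.

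Alternatives were DESeq2 1.42.0, RLE or no scaling, other filters, no fold change threshold, the block, each replicate pair alone and each library left out. A covariate for the pair, and the block without each number, were added after the data were seen. The 45 genes, the other lists and the tests were chosen with earlier results of these data known. Every one of the 45 genes is named, with library values for Mki67, Top2a, the transcription factors, the lowest and highest fold change of each role, and genes called or without overlap. From each other list, the 4 largest called changes are named, with Cdkn1a, Ccnd1 and Myc. Sesn1, Ccnd2, Lin54, Mxd1 and the single marker genes lie outside that rule and were chosen after their values were seen, and most genes of the other lists called only with the block are not named. Human counts were not analysed here.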

Additional observations from a re-analysis of the deposited data

Results flagged for a closer look

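In BMDC-fer, E2f1 of replicate 2 (37.6 CPM) stood away from the other 3 libraries (30.9 to 32.0 CPM), with a gap to the nearest of them that was 0.836 of the whole range, above Dixon's 95% critical value for 4 values. It was the only 1 of 90 groups of 4 libraries, where chance gives 4.5.

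The effect of 3 genes differed between replicates 1 and 2 and replicates 3 and 4 (edgeR interaction test, adjusted over all tested genes). The difference in log2 fold change, replicates 3 and 4 minus replicates 1 and 2, was 0.60 for Ccne1 (-0.66 and -0.06 within the pairs, adjusted p = 0.0114). It was 0.84 for E2f8 (-0.85 and -0.0028, adjusted p = 0.00953) and 0.85 for Aurkb (-0.70 and 0.15, adjusted p = 0.0384). What sets the pairs apart was not tested.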

How the results depend on the processing

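Over the alternatives, RLE or library size scaling, both other filters, no fold change threshold and the loss of any 1 library left 0 of the 45 genes called. Counts of calls that changed are given in the order S phase genes, mitotic genes, other S phase genes, other mitotic genes and G1 genes, against 0, 0, 2, 1 and 6. DESeq2 gave 1, 0, 5, 4 and 7. The replicate block gave 6, 4, 12, 22 and 8, the replicate pair as a covariate 7, 5, 14, 25 and 12, replicates 1 and 2 only 10, 6, 22, 28 and 16, and replicates 3 and 4 only 1, 3, 16, 20 and 21. The block without number 1 gave 1, 0, 2, 4 and 4, without number 2 gave 1, 1, 4, 10 and 4, without number 3 gave 4, 0, 5, 5 and 6, and without number 4 gave 1, 0, 2, 4 and 3. A minimum of 1 CPM gave 2 other mitotic genes, and the filter of at least 1 count gave 5 G1 genes. With 1 library left out, the counts were 0 to 5, 1 to 3 and 3 to 7 for the other S phase, other mitotic and G1 genes. Genes differing between the pairs numbered 11 with DESeq2 against 3. Shares of all tested genes are not given here for DESeq2, the pair as a covariate and the fits with libraries left out. The causes were not tested.

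Signs turned for 10 of the 45 genes and Cdkn1a, none of them called without the block. In replicates 3 and 4 only, the log2 fold change was 0.13 for Mcm10, 0.36 for Cdc6, 0.0206 for Mki67, 0.0211 for Aurka, 0.15 for Aurkb, 0.40 for Plk1, 0.11 for Bub1b, 0.14 for Tpx2 and -0.47 for Cdkn1a. Plk1 was at 0.0475 with the replicate block and 0.0693 with the pair as a covariate. Library size scaling gave -0.0289 for Cdt1 and -0.0583 for Cdkn1a, and the 1 CPM filter gave -0.0086 for Cdkn1a. With the block and without number 1, values were 0.13 for Cdc6, 0.0262 for Aurka, 0.28 for Plk1, 0.00062 for Ube2c, 0.0206 for Tpx2 and -0.12 for Cdkn1a, and without number 2 they were 0.0465 for Plk1 and -0.12 for Cdkn1a. With 1 library left out, values ran from -0.66 to 0.0503 for Cdc6, -0.0760 to 0.22 for Cdt1, -0.62 to 0.0144 for Aurka, -0.47 to 0.25 for Plk1, -0.57 to 0.13 for Ube2c, -0.66 to 0.0045 for Tpx2 and -0.15 to 0.16 for Cdkn1a.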
